A study of Mus musculus with 16 samples.

Results

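The comparison described here sets knock-in (KI) against wild-type (WT) mice 14 days after complete Freund's adjuvant (CFA, an oil suspension of killed mycobacteria that provokes lasting inflammation) was injected into the ankle joint. It comprises the 4 libraries titled as knock-in with arthritis (KI CFA 1 to 4) and the 4 titled as wild type with arthritis (WT CFA 1 to 4), which are 8 of the 16 RNA-seq libraries of the series. The knock-in is named TrkA/C in the labels, which do not describe the construct, its promoter or its zygosity. All mice were C57BL/6 and 10 to 12 weeks old. Each library was a poly-A RNA preparation from 6 ipsilateral lumbar dorsal root ganglia (DRG, levels L4 to L6) pooled from 2 mice, so the replicates are separate pools. The remaining libraries, 4 KI vehicle and 4 WT vehicle, are titled saline and received this vehicle in place of CFA. They serve here for side-by-side values and for the test of whether the genotype difference depended on CFA. For WT CFA 1 the title says wild type while its genotype field says knock-in, and the title was followed.

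DRG hold the cell bodies of the sensory neurons of limbs and trunk. Neurotrophins reach these neurons through the Trk receptor tyrosine kinases and through p75NTR, a shared co-receptor. Neurotrophin-3 acts mainly on TrkC, which is known from proprioceptors and other large myelinated neurons, whereas nerve growth factor acts on small peptidergic nociceptors, which make CGRP and substance P and carry TRPV1, the heat- and capsaicin-gated channel.

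Library totals were 31238001 to 40910947 counts in KI CFA and 28490746 to 34348881 counts in WT CFA. Levels are in CPM (a gene's share of the library total times 1e6, scaled by TMM, edgeR's correction for library composition), and 15507 genes were tested. The sensory neuron markers Prph and Avil lay between 1976 and 2108 CPM and between 1096 and 1176 CPM in KI CFA, against 2014 to 2130 CPM and 1062 to 1173 CPM in WT CFA. Among the CFA libraries, KI CFA 2, KI CFA 3 and WT CFA 2 stood apart in muscle markers, neutrophil markers and interferon-stimulated genes, respectively. KI CFA 2 had 73.6 CPM summed over 15 skeletal muscle markers, against at most 4.55 CPM in any WT CFA library. KI CFA 3 had 322 CPM over 12 neutrophil markers, against 10.9 to 42.7 CPM in WT CFA. It also had 24.0 CPM over 2 erythroid markers, against 0.321 to 2.26 CPM in WT CFA. WT CFA 2 had 1290 CPM over 42 interferon-stimulated genes, where KI CFA libraries had 619 to 695 CPM. Counts per gene cannot separate reads of an endogenous locus from those of knock-in sequence, and in whole ganglia fewer cells of a type and less RNA per cell cannot be told apart.

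Between KI CFA and WT CFA, 441 genes (2.84% of those tested) were called, that is, had a p under 0.05 in edgeR's quasi-likelihood test after Benjamini-Hochberg adjustment. Of these, 169 (1.09%) were higher and 272 (1.75%) lower in KI CFA, and the median log2 fold change over all genes tested was 0.002. Counts of called list members below are to be read against these shares. Called or not, 3.7% of all genes tested had every KI CFA library above every WT CFA library and 4.44% had every one below, against which the groups without overlap below are to be read. Of the called genes, 71 of those higher and 101 of those lower differed by at least 1.5-fold. The count depended on single libraries, with 241 genes called without KI CFA 3, 267 without KI CFA 2, 289 without WT CFA 2 and 35 without these libraries together. It was 296 without WT CFA 3, 315 without WT CFA 1, 365 without KI CFA 1, 367 without WT CFA 4 and 460 without KI CFA 4. The fit without several libraries also has less power, so a call can end with little change in its estimate (Calca, -0.71 and -0.69). The part of lost power in the count of 35 was not tested. Calls for 77 of the 82 called genes named below held with each of the 16 libraries left out in turn, and the other 5 are marked where they appear. Of these 82 calls, 17 held without KI CFA 2, KI CFA 3 and WT CFA 2 together. The named genes are a selection and do not stand for all calls. Of the 441 called genes, 54.0% were still called without KI CFA 3. The log2 fold changes below are KI CFA over WT CFA ± SE, and every adjusted p is from this edgeR fit with Benjamini-Hochberg adjustment over all genes tested.

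**Figure D1:**
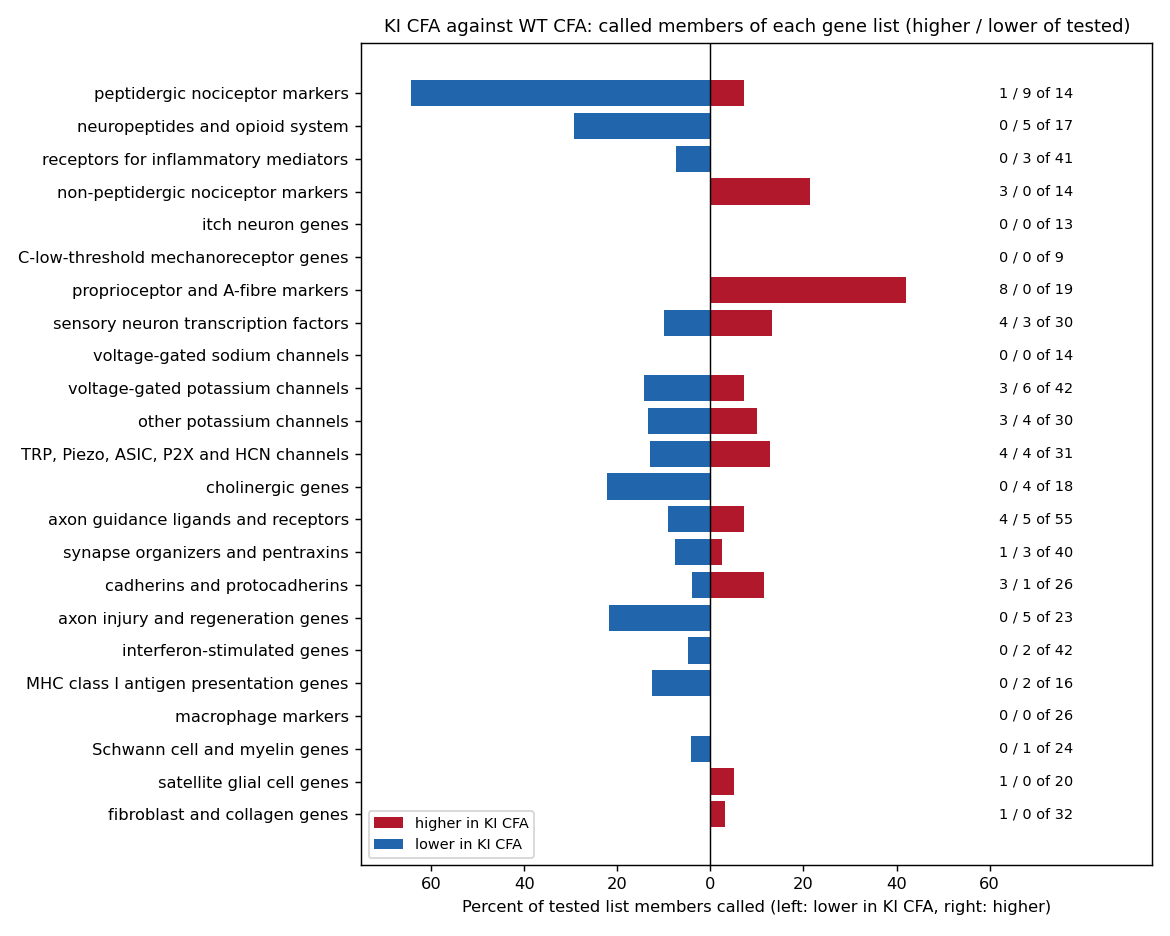
Share of the tested members of 23 gene lists that were called between KI CFA and WT CFA, in percent of the tested members; bars to the right are genes higher in KI CFA and bars to the left genes lower in KI CFA, with the counts at the right edge. The peptidergic list has the longest bar to the left (9 of 14) and the proprioceptor and A-fibre list the longest to the right (8 of 19).

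Among the neurotrophin receptors, Ntrk3 was higher and Ngfr lower in KI CFA. Ntrk3, which encodes TrkC (chromosome 7, 78179986 to 78581034, build mm10), had 99.1, 106, 121 and 112 CPM in KI CFA 1 to 4, against 48.4, 61.4, 45.2 and 44.4 CPM in WT CFA 1 to 4. Every KI CFA library was above every WT CFA library, and WT CFA 1 lay among the other WT libraries in spite of that field. The log2 fold change was 1.13 ± 0.14 (edgeR adjusted p = 0.00025). Ngfr, which encodes p75NTR (chromosome 11, 95568818 to 95587698), had 680, 676, 624 and 692 CPM in KI CFA 1 to 4, against 1104, 1120, 1215 and 1060 CPM in WT CFA 1 to 4. The groups did not overlap, and the log2 fold change was -0.75 ± 0.06 (edgeR adjusted p = 7.2e-07). Ngfr is also a Schwann cell gene, and it was the only member called of the 24 tested on the Schwann cell and myelin list, whose median log2 fold change was 0.14 (0.06 without KI CFA 1 and 0.05 without WT CFA 3).

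Ntrk2, which encodes the BDNF receptor TrkB, was not called. It had 296, 278, 296 and 369 CPM in KI CFA, against 318, 342, 284 and 307 CPM in WT CFA, and its log2 fold change was -0.01 ± 0.09 (edgeR adjusted p = 0.99). Bdnf, the ligand of TrkB, was not called either, with 52.5, 44.4, 48.9 and 38.9 CPM in KI CFA and 45.1, 55.1, 78.1 and 58.1 CPM in WT CFA. Sort1, which encodes sortilin, a sorting receptor that pairs with p75NTR, had 101 to 103 CPM in KI CFA and 67.8 to 91.4 CPM in WT CFA. Its groups did not overlap, but the difference of 0.27 ± 0.08 on the log2 scale did not pass the test (edgeR adjusted p = 0.092). Of 27 genes for adaptors and kinases downstream of Trk receptors, 0 were called with edgeR (1 with DESeq2, 1 with limma-voom, and 1 with edgeR without WT CFA 4 or WT vehicle 4), and 3 had an unadjusted p under 0.05.

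**Figure D2:**
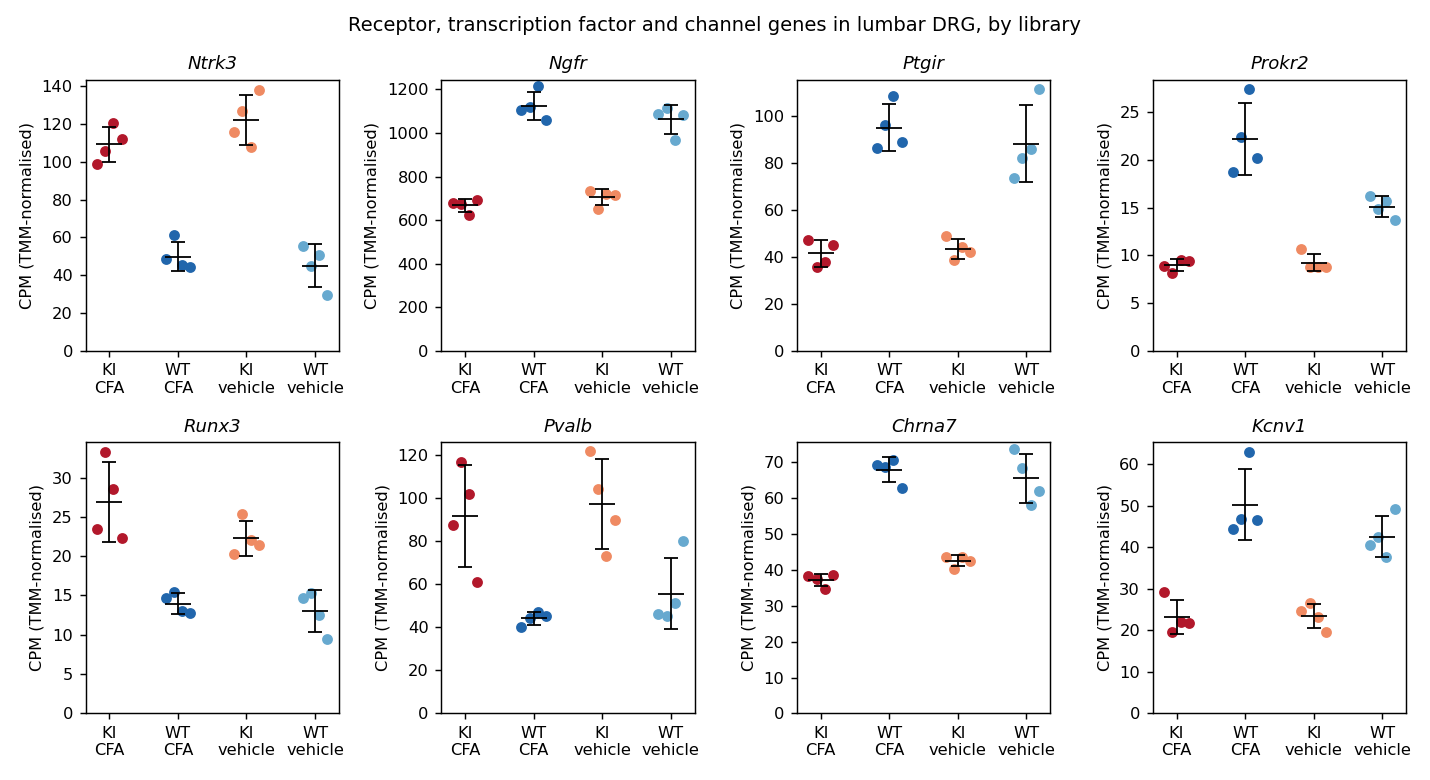
CPM (TMM-normalised, y axis from 0) of 8 genes in each of the 16 libraries, by group; points are libraries, and the black line and bar are the group mean and SD (n = 4). In every panel the KI CFA points lie wholly above (Ntrk3, Runx3, Pvalb) or wholly below (Ngfr, Ptgir, Prokr2, Chrna7, Kcnv1) the WT CFA points.

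Markers of peptidergic nociceptors were mostly lower in KI CFA. Of the 14 tested members of the list, 9 fell and 1 rose, and the list's median log2 fold change was -0.55. Without KI CFA 2, KI CFA 3 and WT CFA 2 together, 3 fell, 0 rose and the median was -0.38. Calls for Calca, Trpv1, Adcyap1, Gfra3, Tac1 and Sstr2 were then lost, with Calca at -0.69 and Trpv1 at -0.38. Calca, which encodes CGRP, had 809, 698, 698 and 672 CPM in KI CFA 1 to 4, against 1057, 1106, 1299 and 1241 CPM in WT CFA 1 to 4, with no overlap. Its log2 fold change was -0.71 ± 0.13 (edgeR adjusted p = 0.0037). Trpv1 (chromosome 11, 73234149 to 73261322) had 201, 155, 159 and 202 CPM in KI CFA, against 251, 287, 270 and 269 CPM in WT CFA. Its groups were also separate, at a log2 fold change of -0.59 ± 0.09 (edgeR adjusted p = 0.0015). Adcyap1, which encodes the neuropeptide PACAP, fell by 0.63 ± 0.08 and Gfra3, the artemin co-receptor, by 0.52 ± 0.08. Tac1, the substance P precursor, had 177 to 226 CPM in KI CFA and 252 to 305 CPM in WT CFA, and its call (log2 fold change -0.49, edgeR adjusted p = 0.013) was lost without KI CFA 2, KI CFA 3 or WT CFA 3, at -0.45 to -0.44. Smr2, a submaxillary gland androgen-regulated protein gene that marks a peptidergic subset, had 2.26 to 2.93 CPM in KI CFA and 8.52 to 11.9 CPM in WT CFA, a log2 fold change of -1.99 ± 0.19. Sstr2, a somatostatin receptor gene, was the member that rose, with 11.4 to 14.2 CPM in KI CFA, against 8.09 to 9.28 CPM in WT CFA, and a log2 fold change of 0.53 ± 0.09.

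Receptors for inflammatory mediators included 3 called members of 41 tested, all lower in KI CFA (5 fell without WT vehicle 4). Ptgir, which encodes the prostacyclin receptor (chromosome 7, 16906490 to 16910905), had 47.4, 35.8, 37.8 and 45.2 CPM in KI CFA, against 86.5, 96.3, 109 and 88.9 CPM in WT CFA. The highest KI CFA library was far below the lowest WT CFA library, and the log2 fold change was -1.20 ± 0.12 (edgeR adjusted p = 1.2e-05). Prokr2, a receptor for prokineticins (chromosome 2, 132369705 to 132385502), had 8.91, 8.17, 9.49 and 9.39 CPM in KI CFA, against 18.8, 22.4, 27.4 and 20.2 CPM in WT CFA. It was separate too, at a log2 fold change of -1.30 ± 0.11 (edgeR adjusted p = 1.9e-06). F2r, which encodes the thrombin receptor PAR1 (chromosome 13, 95601780 to 95618466), had 10.4 to 14.3 CPM in KI CFA and 18.9 to 23.5 CPM in WT CFA, a log2 fold change of -0.81 ± 0.11. Outside the list, S1pr3, a sphingosine 1-phosphate receptor gene, had 156, 135, 135 and 137 CPM in KI CFA, against 205, 198, 200 and 192 CPM in WT CFA. The groups did not overlap (log2 fold change -0.50 ± 0.06, edgeR adjusted p = 0.00013). Calls for Smr2, Ptgir, Prokr2 and S1pr3, like those for Ntrk3 and Ngfr, also held without KI CFA 2, KI CFA 3 and WT CFA 2 together.

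On the list of neuropeptides and the opioid system, 5 of 17 tested members fell, 0 rose and 12 were not called, with a median of -0.20. Without KI CFA 2, KI CFA 3 and WT CFA 2 together, 0 of them fell. Gal, which encodes galanin, had 12.2, 8.69, 11.6 and 11.9 CPM in KI CFA, against 25.4, 37.1, 16.1 and 23.4 CPM in WT CFA. WT CFA 2 was highest and WT CFA 3 closest to the KI CFA range, which it did not reach (log2 fold change -1.20 ± 0.22, edgeR adjusted p = 0.0042). Galr1, a galanin receptor gene outside the list, had 2.36 to 4.06 CPM in KI CFA and 5.59 to 7.70 CPM in WT CFA, a log2 fold change of -1.14 ± 0.18. Scg2, which encodes secretogranin II, a protein of dense-core vesicles, had 378 to 447 CPM in KI CFA and 516 to 581 CPM in WT CFA, a log2 fold change of -0.40 ± 0.07. Outside the list, Pcsk1, a convertase that cuts peptide precursors, fell by 0.49 ± 0.07, and Resp18, another dense-core vesicle protein gene, by 0.46 ± 0.07.

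Oprm1, the mu-opioid receptor gene, had 17.8, 19.2, 24.2 and 25.5 CPM in KI CFA, against 30.9, 38.9, 30 and 29.3 CPM in WT CFA. The groups did not overlap under CFA, and the log2 fold change was -0.57 ± 0.11 (edgeR adjusted p = 0.0078). Both main enzymes of the endocannabinoid 2-AG were lower. Dagla, which makes it, had 28.0 to 33.0 CPM in KI CFA and 39.6 to 49.0 CPM in WT CFA (log2 fold change -0.48 ± 0.10). Mgll, which breaks it down, had 92.1 to 102 CPM in KI CFA and 116 to 127 CPM in WT CFA (log2 fold change -0.33 ± 0.05).

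Called markers of proprioceptors and other A-fibre neurons were all higher in KI CFA. Of the 19 tested members, Ntrk3 included, 8 rose, 0 fell (1 fell without KI CFA 4) and 11 were not called, and the median log2 fold change was 0.31. Runx3, a transcription factor of TrkC-positive proprioceptors (chromosome 4, 135120645 to 135177990), had 23.4, 33.3, 28.5 and 22.2 CPM in KI CFA, against 14.7, 15.4, 13.0 and 12.8 CPM in WT CFA. It was separate between the groups at a log2 fold change of 0.94 ± 0.14 (edgeR adjusted p = 0.00087). Whrn, which encodes the scaffold protein whirlin of proprioceptors, had 47.7, 61.5, 51.6 and 37.0 CPM in KI CFA, against 28.5, 26.8, 21.7 and 24.1 CPM in WT CFA. Its log2 fold change was 0.97 ± 0.15, again with no overlap. Etv1, a transcription factor of proprioceptors, had 163 to 209 CPM in KI CFA and 122 to 133 CPM in WT CFA (log2 fold change 0.54 ± 0.09). Genes for calcium-binding proteins of large neurons were among the larger differences. Calb2, which encodes calretinin, had 16.9, 29.9, 26.3 and 13.9 CPM in KI CFA, against 5.57, 10.4, 9.19 and 7.00 CPM in WT CFA, and rose by 1.44 ± 0.28. Pvalb, which encodes parvalbumin, had 87.4, 117, 102 and 61.1 CPM in KI CFA, against 39.9, 44.3, 47.2 and 45.1 CPM in WT CFA, and rose by 1.05 ± 0.19 (edgeR adjusted p = 0.0040). Slc17a7, the vesicular glutamate transporter VGLUT1, had 260 to 393 CPM in KI CFA and 231 to 238 CPM in WT CFA (log2 fold change 0.48 ± 0.10).

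Within KI CFA, libraries 2 and 3 were the highest and library 4 the lowest for Runx3 (where libraries 1 and 4 were close), Calb2 and Pvalb. Pvalb is also made in fast skeletal muscle. The summed level of the other 15 muscle markers was 6.62, 73.6, 25.7 and 4.25 CPM in KI CFA 1 to 4, against 4.29, 3.83, 4.31 and 4.55 CPM in WT CFA 1 to 4. KI CFA 4 had a muscle sum within the WT CFA range and the lowest Pvalb, Runx3, Whrn and Calb2 of KI CFA, each above every WT CFA library. The part of muscle RNA in these differences was not tested. Without KI CFA 2, KI CFA 3 and WT CFA 2 together, 1 A-fibre marker (Ntrk3) was still called and the list's median was 0.30.

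**Figure D3:**
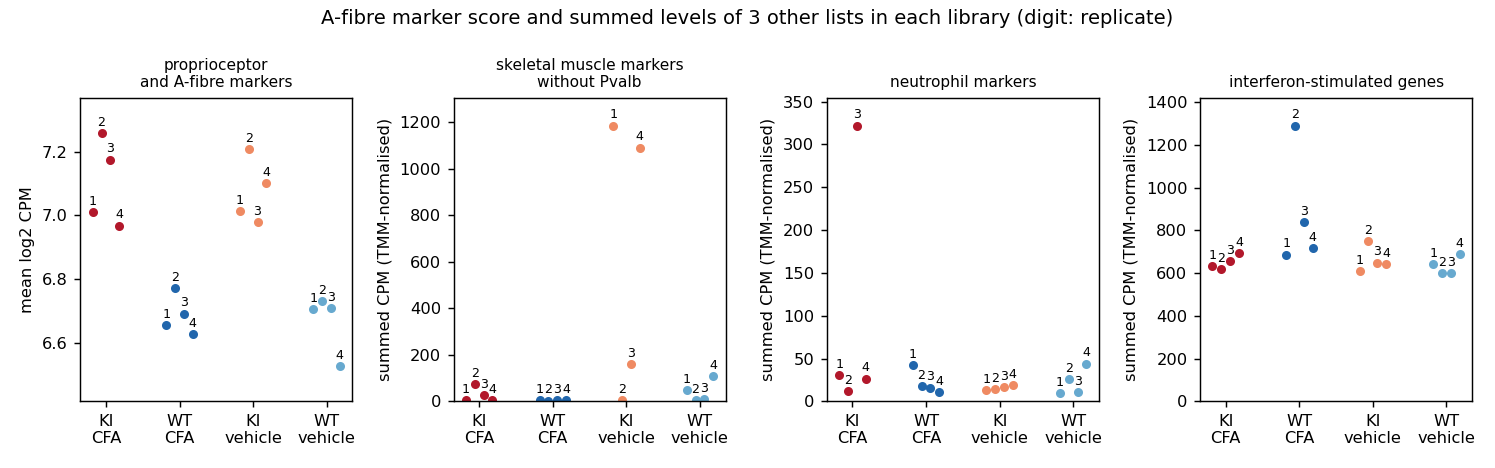
Mean log2 CPM of the 19 A-fibre markers (left) and summed CPM of 15 muscle, 12 neutrophil and 42 interferon-stimulated genes in each library (digits are replicate numbers). All 4 KI CFA points lie above the WT CFA points for the A-fibre score. Among the CFA libraries, the muscle sum is highest in KI CFA 2, the neutrophil sum in KI CFA 3 and the interferon sum in WT CFA 2. The highest muscle sums of the panel are those of KI vehicle 1 and 4 (1185 and 1090 CPM). KI vehicle 3 (160 CPM) and WT vehicle 4 (108 CPM) also lie above KI CFA 2 (73.6 CPM).

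Sensory neuron transcription factors moved in both directions, with 4 of 30 tested members higher and 3 lower in KI CFA (0 lower without KI CFA 3, 1 lower without WT CFA 3). Beside Runx3 and Etv1, the higher ones were Esrrb and Esrrg, orphan nuclear receptors known from gamma motor neurons. Esrrb had 5.65 to 11.1 CPM in KI CFA and 4.24 to 5.21 CPM in WT CFA, a log2 fold change of 0.92 ± 0.18. Esrrg had 39.0 to 56.2 CPM in KI CFA and 26.6 to 32.3 CPM in WT CFA, a log2 fold change of 0.74 ± 0.14.

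RUNX factors bind the DNA word AACCACA, and in mice RUNX1 and RUNX3 are known for opposite roles in nociceptor and proprioceptor lineages. Upstream sequences that hold the word are shown for a gene that rose and 2 that fell, as picked examples and not as a sample of the called genes. The sequences are RefSeq promoters of build GRCm38.p6, 250 bases before the start site, 5′ to 3′ along the gene, with each match of the word or its reverse complement in capitals.
Runx3, chr4:135120395-135120644, + strand: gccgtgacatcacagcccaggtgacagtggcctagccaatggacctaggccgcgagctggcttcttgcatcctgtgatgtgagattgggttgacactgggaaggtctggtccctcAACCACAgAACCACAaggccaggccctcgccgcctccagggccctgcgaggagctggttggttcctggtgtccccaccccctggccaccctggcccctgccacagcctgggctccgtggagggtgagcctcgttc
Trpv1, chr11:73233899-73234148, + strand: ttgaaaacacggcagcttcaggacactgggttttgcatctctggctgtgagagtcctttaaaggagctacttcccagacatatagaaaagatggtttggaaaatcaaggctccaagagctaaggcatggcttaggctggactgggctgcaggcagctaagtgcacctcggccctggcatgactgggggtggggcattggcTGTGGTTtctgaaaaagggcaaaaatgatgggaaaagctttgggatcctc
F2r, chr13:95618467-95618716, - strand: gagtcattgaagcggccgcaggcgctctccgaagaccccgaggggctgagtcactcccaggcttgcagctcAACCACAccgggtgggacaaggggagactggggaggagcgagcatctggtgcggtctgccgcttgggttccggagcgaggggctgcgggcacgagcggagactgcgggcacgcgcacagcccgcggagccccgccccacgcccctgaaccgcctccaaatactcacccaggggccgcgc

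The Runx3 sequence holds 2 copies, starting 135 and 127 bases before the start site, and a second Runx3 start site in the table holds 0. In Trpv1 the match starts 50 bases before the start site on the opposite strand, and in F2r it starts 179 bases before it. Of all 32851 promoters in the table, 4.40% hold the word on either strand in this window. The share was 3.09% over 162 promoters of genes that rose, 5.19% over 270 promoters of genes that fell and 3.06% over 15557 promoters of genes tested. A match is a string of letters and not evidence of binding.

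Potassium channel genes were called in both directions. Of 42 tested voltage-gated subunits and their partners, 6 fell and 3 rose (5 rose without KI CFA 4 and 7 without WT vehicle 4). Kcnv1, which encodes a silent subunit that modifies Kv2 channels (chromosome 15, 45096086 to 45115912), had 29.1, 19.7, 22.1 and 21.7 CPM in KI CFA, against 44.5, 46.7, 63.0 and 46.7 CPM in WT CFA. The ranges were far apart, at a log2 fold change of -1.12 ± 0.13 (edgeR adjusted p = 8.4e-05). Kcnq5, a subunit of the M-type channels that damp firing, fell by 0.72 ± 0.09 (22.3 to 26.9 CPM in KI CFA, 37.0 to 43.8 CPM in WT CFA). Kcnip3, a calcium-binding partner of Kv4 channels also known as DREAM, fell by 0.33 ± 0.06. In contrast, Kcnip2, another Kv4 partner, rose by 0.28 ± 0.05. Kcnab1, a Kv1 beta subunit, had 197, 209, 228 and 232 CPM in KI CFA, against 157, 168, 164 and 165 CPM in WT CFA, with no overlap (log2 fold change 0.40 ± 0.05). Calls for Kcnv1, Kcnq5 and Kcnab1 held without the 3 libraries that stood apart.

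Of 30 tested K2P (background), inwardly rectifying and calcium-activated potassium channel genes, 4 fell and 3 rose (2 fell without KI CFA 2, KI CFA 3 or WT CFA 2). Kcnk2 and Kcnk3, which encode the background channels TREK-1 and TASK-1, fell by 0.86 ± 0.16 and 0.52 ± 0.10 on the log2 scale. Kcnk2 had 12.6, 9.58, 9.64 and 15.3 CPM in KI CFA, against 21.7, 24.2, 21.6 and 18.4 CPM in WT CFA. Kcnk1, which encodes TWIK-1, had 75.6 to 88.6 CPM in KI CFA, above the 55.6 to 60.9 CPM of WT CFA (log2 fold change 0.53 ± 0.07). Kcnj11, the pore of ATP-sensitive potassium channels, rose by 0.65 ± 0.11 (10.6 to 15.8 CPM in KI CFA, 7.87 to 9.13 CPM in WT CFA). Kcnn1, a small-conductance calcium-activated channel, rose by 0.27 ± 0.05.

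Of 14 voltage-gated sodium channel subunits, 0 were called with edgeR, also with each library left out in turn, 0 with DESeq2 and 0 with limma-voom, and 3 had an unadjusted p under 0.05. On the list of 31 tested TRP, Piezo, acid-sensing, P2X, HCN and related channel genes, 4 fell, Trpv1 among them, and 4 rose. The number that rose was 1 without KI CFA 2, KI CFA 3, WT CFA 2 or WT CFA 3 and 2 without WT CFA 1 or WT CFA 4. Asic3, an acid-sensing channel of muscle and joint afferents, had 82.6, 88.1, 75.3 and 73.4 CPM in KI CFA, against 111, 98.8, 111 and 104 CPM in WT CFA. It was separate between the groups and fell by 0.41 ± 0.07 (edgeR adjusted p = 0.0022), also without the 3 libraries that stood apart. Tmc5, a member of the transmembrane channel-like family, had 0.541, 0.345, 0.910 and 0.688 CPM in KI CFA, against 2.89, 2.69, 1.85 and 1.58 CPM in WT CFA (log2 fold change -1.84 ± 0.29). Ano1, the calcium-activated chloride channel TMEM16A, rose by 0.73 ± 0.13 (15.9 to 19.9 CPM in KI CFA, 9.92 to 11.2 CPM in WT CFA). Cacng5, an auxiliary subunit of the stargazin family, rose by 0.37 ± 0.07.

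Of 18 tested genes of acetylcholine signalling, 4 fell, 0 rose and 14 were not called. The median log2 fold change was -0.17, and -0.29 without KI CFA 3. Chrna7, the alpha7 nicotinic receptor subunit (chromosome 7, 63098692 to 63212526), had 38.3, 37.4, 34.7 and 38.6 CPM in KI CFA, against 69.4, 68.8, 70.6 and 62.9 CPM in WT CFA. Both groups were tight and far apart, and the log2 fold change was -0.87 ± 0.07 (edgeR adjusted p = 7.6e-07). Chrnb3, another nicotinic subunit, fell by 0.65 ± 0.10 and Chrm2, a muscarinic receptor, by 0.81 ± 0.15. Slc5a7, the high-affinity choline transporter, had 2.23, 0.920, 1.33 and 2.29 CPM in KI CFA, against 5.34, 5.25, 4.77 and 3.52 CPM in WT CFA (log2 fold change -1.48 ± 0.23). Slc5a7 is also a marker of motor neurons, and the motor neuron genes Chat and Slc18a3 were at or near 0. Chat had at most 1 count in any KI CFA library and at most 3 in any WT CFA library, and Slc18a3 had 0 counts in all 8. Outside the list, Colq, the collagen tail of acetylcholinesterase, had 7.00 to 9.32 CPM in KI CFA, above the 4.52 to 5.50 CPM of WT CFA (log2 fold change 0.76 ± 0.14).

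For other transmitters, Htr3a, the main subunit of the serotonin-gated channel, had 152, 139, 116 and 147 CPM in KI CFA, against 205, 201, 229 and 201 CPM in WT CFA. It fell by 0.59 ± 0.09 with no overlap (edgeR adjusted p = 0.0015). Adra1d, an alpha1-adrenergic receptor, rose by 0.76 ± 0.14 (6.74 to 8.40 CPM in KI CFA, 3.53 to 5.66 CPM in WT CFA). Gabrg3, the gamma3 subunit of GABA-A receptors, had 1.30, 1.78, 1.64 and 2.41 CPM in KI CFA, against 6.52, 6.87, 4.70 and 5.13 CPM in WT CFA. The groups were separate at a log2 fold change of -1.69 ± 0.25 (edgeR adjusted p = 0.00077). Grik1, a kainate receptor subunit of small non-peptidergic neurons, rose by 0.29 ± 0.05 (430 to 472 CPM in KI CFA, 354 to 382 CPM in WT CFA). It was 1 of 3 called members, all higher, of the 14 tested non-peptidergic markers, of which 13 were higher by sign. The number called was 1 without KI CFA 3, WT CFA 1 or WT CFA 3 and 5 without WT vehicle 4. Without KI CFA 2, KI CFA 3 and WT CFA 2 together, 0 were called. The list's median log2 fold change was 0.17, and 0.2 without these libraries together. Of 13 itch neuron genes and 9 genes of C-low-threshold mechanoreceptors, 0 were called with edgeR, DESeq2 or limma-voom, and 2 and 3 genes had an unadjusted p under 0.05. Without KI CFA 1 there was 1 itch gene called and without WT vehicle 4 there was 1 C-low-threshold gene.

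**Figure D4:**
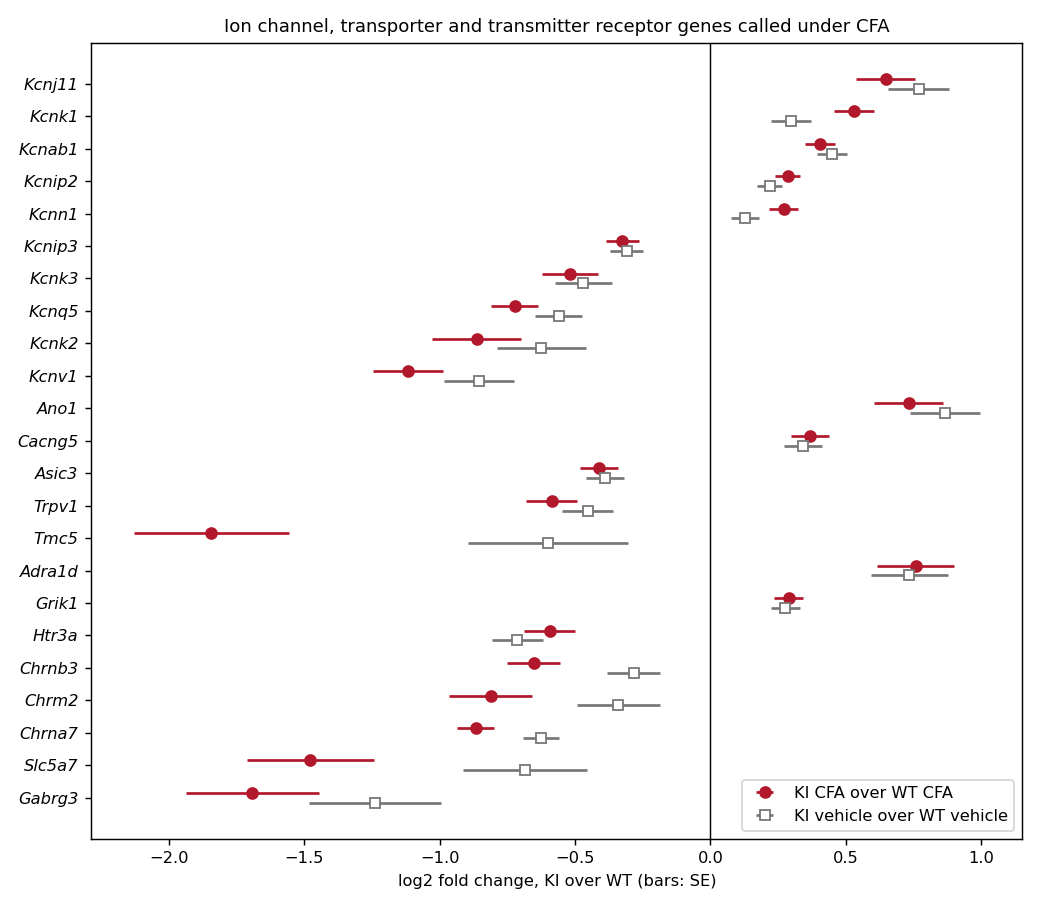
Log2 fold change (x axis, KI over WT, bars are SE) of 23 channel, transporter and transmitter receptor genes called under CFA; filled circles are KI CFA over WT CFA and open squares KI vehicle over WT vehicle. The 2 estimates of each gene lie on the same side of 0, and those of Tmc5 are furthest apart (-1.84 and -0.60).

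Genes of wiring and adhesion were called in both directions. Of 55 tested axon guidance genes, 5 fell and 4 rose (3 fell without KI CFA 1 or WT CFA 2, 2 without KI CFA 3 and 11 without WT vehicle 4). Sema5a, a transmembrane semaphorin, had 81.7, 65.0, 73.1 and 72.8 CPM in KI CFA, against 121, 131, 105 and 103 CPM in WT CFA. It fell by 0.65 ± 0.09 (edgeR adjusted p = 0.00030), and Nrp2, a semaphorin receptor, fell by 0.51 ± 0.10. Sema7a, a membrane-anchored semaphorin, rose by 0.47 ± 0.08 and Efnb2, an ephrin, by 0.38 ± 0.07. Of 40 synapse genes, 3 fell and 1 rose (5 fell and 3 rose without WT vehicle 4, and 2 rose without WT vehicle 2). Nptx1, a secreted pentraxin that gathers AMPA receptors at synapses (chromosome 11, 119538719 to 119547820), had 187, 211, 200 and 208 CPM in KI CFA, against 313, 299, 348 and 298 CPM in WT CFA. The groups were separate at a log2 fold change of -0.64 ± 0.06 (edgeR adjusted p = 3.3e-06), also without the 3 libraries that stood apart. Cplx2, a regulator of vesicle fusion, fell by 0.50 ± 0.08. Cbln2, a synaptic organizer, rose by 0.47 ± 0.07.

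Among cell adhesion genes, Pcdh8 had 9.96, 12.9, 10.8 and 6.88 CPM in KI CFA, against 5.34, 5.31, 3.99 and 5.53 CPM in WT CFA (log2 fold change 1.00 ± 0.16). Cdh12 rose by 0.90 ± 0.16, while Pcdh17 fell by 0.55 ± 0.09 (51.3 to 61.7 CPM in KI CFA, 76.5 to 87.3 CPM in WT CFA). In the BMP and activin family, Inhbb, the activin beta-B subunit, rose by 0.89 ± 0.18. Its levels followed the same order over libraries as Calb2, with 12.6, 19.6, 17.6 and 9.96 CPM in KI CFA, against 7.12, 8.94, 8.76 and 7.58 CPM in WT CFA. Bmpr1b, a BMP receptor found on peptidergic neurons, fell by 0.70 ± 0.14, and Fstl5, a follistatin-like protein gene, by 0.47 ± 0.08.

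Of 23 tested genes linked to axon injury and regeneration, 5 fell, 0 rose and 18 were not called, with a median of -0.25 (3 fell without any 1 of KI CFA 2, KI CFA 3, KI CFA 4, KI vehicle 3, WT CFA 1, WT CFA 2 and WT CFA 3). Gap43, a growth cone protein gene (chromosome 16, 42248552 to 42340651), had 153, 138, 129 and 152 CPM in KI CFA, against 265, 245, 248 and 231 CPM in WT CFA. The lowest WT CFA library was well above the highest KI CFA library, and the log2 fold change was -0.79 ± 0.08 (edgeR adjusted p = 1.2e-05). Stmn4, a microtubule-regulating stathmin, had 10.9 to 12.2 CPM in KI CFA and 15.8 to 21.4 CPM in WT CFA (log2 fold change -0.70 ± 0.11).

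Of 12 tested MAPK feedback and target genes, 2 fell, 0 rose and 10 were not called, with a median of -0.11 (-0.07 without WT CFA 2). The number that fell was 1 without any 1 of KI CFA 2, KI CFA 3 and the 4 WT CFA libraries. Etv5, an ETS transcription factor induced by receptor tyrosine kinase signalling, had 105, 114, 116 and 122 CPM in KI CFA, against 151, 147, 180 and 141 CPM in WT CFA. It fell by 0.44 ± 0.08 (edgeR adjusted p = 0.0029). Spry4, a feedback inhibitor of the same pathway, had 27.6 to 36.5 CPM in KI CFA and 39.6 to 46.2 CPM in WT CFA, but its log2 fold change of -0.37 ± 0.10 did not pass the test (edgeR adjusted p = 0.053). Dusp5, a phosphatase of the same pathway, was not called either, at a log2 fold change of 0.31 ± 0.10 (edgeR adjusted p = 0.13).

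Some of the larger differences lay outside the lists. Rxfp1, a receptor for the hormone relaxin, had 5.66, 5.69, 7.22 and 8.95 CPM in KI CFA, against 1.94, 2.00, 2.07 and 2.85 CPM in WT CFA. It was separate between the groups and rose by 1.63 ± 0.19 (edgeR adjusted p = 7.3e-05). Wdr72, known for its part in tooth enamel formation, rose by 1.21 ± 0.16 (6.61 to 11.6 CPM in KI CFA, 3.85 to 4.10 CPM in WT CFA). Vstm2b, an immunoglobulin-domain protein gene, rose by 1.20 ± 0.18. Mrap2, an accessory protein of melanocortin and other receptors, had 4.71, 2.88, 2.34 and 5.85 CPM in KI CFA, against 11.3, 11.7, 11.7 and 10.6 CPM in WT CFA (log2 fold change -1.52 ± 0.26). Stum, the mouse counterpart of a fly gene needed for proprioception, fell by 1.59 ± 0.25 (1.52 to 2.58 CPM in KI CFA, 5.66 to 6.90 CPM in WT CFA). C1qtnf7, a C1q- and TNF-related protein gene, fell by 1.61 ± 0.24. Syndig1l, a transmembrane protein gene, had 12.4, 14.6, 14.0 and 14.0 CPM in KI CFA, against 26.1, 24.5, 24.7 and 24.7 CPM in WT CFA (log2 fold change -0.86 ± 0.08). Trappc3l, a vesicle-tethering complex gene, fell by 0.87 ± 0.09. Calls for Rxfp1, Wdr72, Syndig1l and Trappc3l held without the 3 libraries that stood apart.

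Of 19 tested retinoic acid genes, 2 rose and 1 fell (0 rose without KI CFA 1, KI CFA 2 or WT CFA 2, and 1 without WT CFA 3). The 1 that fell was Rxrg, a retinoid X receptor gene, by 0.60 ± 0.10 (12.7 to 16.8 CPM in KI CFA, 19.0 to 25.0 CPM in WT CFA).

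Interferon-stimulated genes were lower in KI CFA by sign in 42 of 42 tested members, but few were called and the size followed WT CFA 2. The list's median log2 fold change was -0.50 and 2 members fell, whereas without WT CFA 2 the median was -0.21 and 0 fell. The number that fell ran from 0 to 6 with single libraries left out (0 also without KI CFA 2, KI CFA 3 or WT CFA 3, and the most without WT CFA 1). Usp18, an interferon feedback gene, had 2.16, 2.16, 2.1 and 2.61 CPM in KI CFA, against 1.97, 11.0, 6.80 and 2.94 CPM in WT CFA. WT CFA 2 and 3 were high, WT CFA 1 lay below the KI CFA libraries, and Usp18 was not called (log2 fold change -1.32 ± 0.39, edgeR adjusted p = 0.088). Oasl2 and Igtp, interferon-induced antiviral genes, were called with log2 fold changes of -0.58 (edgeR adjusted p = 0.047) and -0.56 (edgeR adjusted p = 0.024). Without WT CFA 2 these were -0.35 (edgeR adjusted p = 0.16) and -0.39 (edgeR adjusted p = 0.092). On the list of 16 MHC class I genes, H2-Q4 and Nlrc5 fell by 0.69 and 0.82, and their calls were lost without WT CFA 2, at -0.55 (edgeR adjusted p = 0.14) and -0.48 (edgeR adjusted p = 0.17). Other single libraries ended these 4 calls too, with 0 MHC class I members called without KI CFA 2, KI CFA 3 or WT CFA 4.

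Calls on lists of non-neuronal cells are to be read beside the 2.84% of all genes tested that were called. Of 26 macrophage markers, 0 were called with edgeR in the full fit or with any library left out, 0 with DESeq2 and 0 with limma-voom. For 1 of them the unadjusted p was under 0.05, and their median log2 fold change was -0.30 (-0.16 without KI CFA 2). Of 32 fibroblast and collagen genes, Ctgf, a matricellular growth factor gene, was called (2 genes without WT CFA 1). It had 6.84, 7.74, 9.33 and 6.71 CPM in KI CFA, against 3.69, 3.55, 2.03 and 2.97 CPM in WT CFA (log2 fold change 1.32 ± 0.26, edgeR adjusted p = 0.0075). Of 10 meningeal markers, 0 were called with edgeR (1 with DESeq2, 0 with limma-voom, 5 at an unadjusted p under 0.05, and 3 with edgeR without WT CFA 1). They summed to 44.0 to 149 CPM in KI CFA, against 15.9 to 82.2 CPM in WT CFA. The part of meningeal cells in the higher Ctgf was not tested. Of 12 neutrophil markers, 0 were called with edgeR, DESeq2 or limma-voom and 11 had an unadjusted p under 0.05. Their median log2 fold change was 2.3 in the full fit and 0.00 without KI CFA 3. Of 12 T cell markers 3 could be tested, of which 0 were called with edgeR, DESeq2 or limma-voom and 0 had an unadjusted p under 0.05. They summed to 2.33 to 2.90 CPM in KI CFA and 1.92 to 3.52 CPM in WT CFA.

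With vehicle, KI vehicle against WT vehicle, 673 genes (4.34%) were called, 333 higher (2.15%) and 340 lower (2.19%), a comparison that shares no library with the one under CFA. The 15 muscle markers summed to 1185, 160 and 1090 CPM in KI vehicle 1, 3 and 4 and to 108 CPM in WT vehicle 4. Of 16 muscle markers, Pvalb included, 6 were called higher with vehicle. The part of muscle RNA in the vehicle and interaction values was not tested. Without WT vehicle 4, 401 genes were called with vehicle. Of the 169 genes higher in KI CFA, 90 were also called higher with vehicle and 0 called lower, and of the 272 lower genes, 148 were called lower and 0 higher. The test of the difference itself, the interaction of genotype and CFA, called 0 of 15507 genes (0%) with edgeR, 0 with DESeq2 and 0 with limma-voom, and 976 genes had an unadjusted p under 0.05. No gene can therefore be said to differ by genotype more under CFA than with vehicle, and this does not show that the effects were the same. Of the called genes described above, Prokr2, Oprm1 and S1pr3 had the smallest unadjusted interaction p. Prokr2 had a log2 fold change of -1.30 under CFA and -0.71 with vehicle (interaction -0.59, unadjusted p = 0.0012, edgeR adjusted p = 0.72). Oprm1 had -0.57 under CFA and 0.03 with vehicle (interaction -0.61, unadjusted p = 0.0015, edgeR adjusted p = 0.72). S1pr3 had -0.50 under CFA and -0.19 with vehicle (interaction -0.31, unadjusted p = 0.0020, edgeR adjusted p = 0.72). By size, the largest interaction estimates among these genes were those of Tmc5 (-1.24, unadjusted p = 0.0070) and Ctgf (1.05, unadjusted p = 0.010). Ntrk3, at 1.13 under CFA and 1.44 with vehicle, and Ngfr, at -0.75 and -0.59, were called in both.

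**Figure D5:**
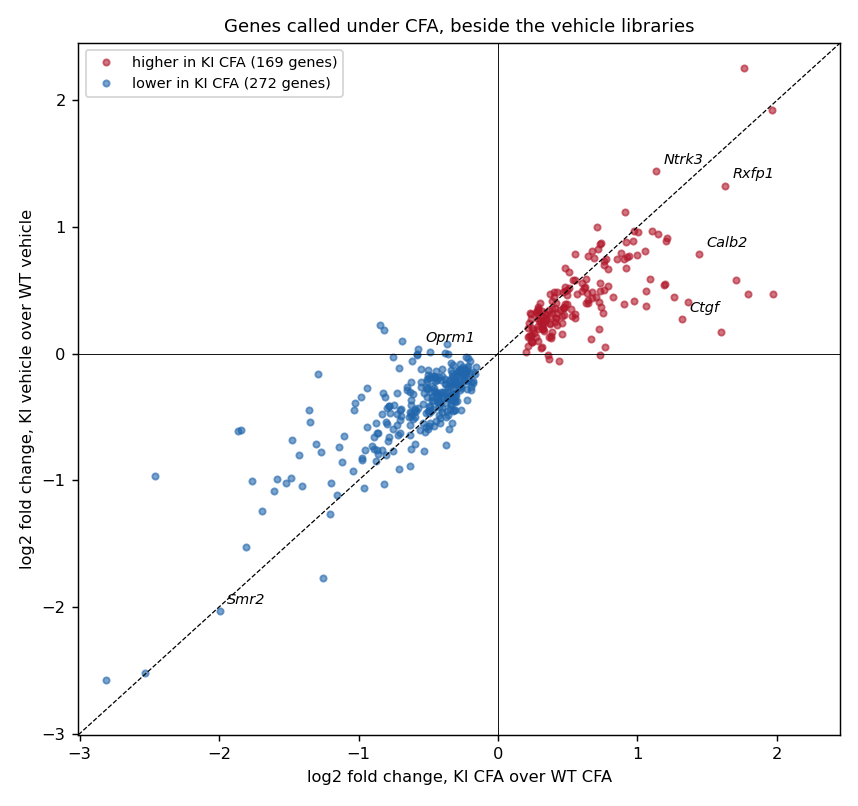
Log2 fold change of the 441 genes called under CFA (x axis, KI CFA over WT CFA) beside that of the same genes with vehicle (y axis, KI vehicle over WT vehicle); red points are the 169 genes higher in KI CFA, blue points the 272 lower, and the dashed line marks equal values. The x values chose the genes, so the wider spread of x than of y (medians 0.48 and 0.37 for higher genes, -0.48 and -0.36 for lower genes) is a description only.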

How the data were processed

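Per the labels' protocols, 150 ng of RNA per library was poly-A selected, with 15 PCR cycles, strand selection and 50-nucleotide single reads. The submitters' processing notes name build mm10, HTSeq 0.6.1p1, SAMtools 1.5, TopHat2 2.1.1 with Bowtie2 2.3.5.1, bcl2fastq 2.20 and FastQC. The annotation and strand mode are not given in the sources used here, so reads of overlapping or antisense genes cannot be separated. The authors deposited raw counts per gene, whole numbers without normalization.

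The table held 24982 genes, of which 4755 had 0 counts in every library, and 24891 were matched by Entrez identifier to RefSeq GRCm38.p6 for positions. filterByExpr left 15507 genes. edgeR 4.0.16 in R 4.3.3 fitted 1 mean per group to all 16 libraries with TMM factors and a quasi-likelihood test, with a common biological coefficient of variation of 11.8% and 12 residual degrees of freedom, and was tested on simulated data. The adjusted p is Benjamini-Hochberg over all genes tested. CPM values are TMM-normalised and list scores are mean log2 CPM with a prior count of 2. A count of 3 equals 0.096 CPM in KI CFA 1, and depth limits cover counting error only. The labels tie no library to a lane, so no sequencing batch could be tested. Over all 120 pairs of libraries, the chi-square per gene of their counts was at least 4.69, so no pair agreed within sampling noise.

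The genes compared, the 46 gene lists and the rule for named genes were chosen with earlier results of these data known. The rule named neurotrophin receptors and ligands, the 12 largest changes each way among calls of 1 CPM or more without overlap, the 10 smallest p-values, the 6 smallest p-values of each list, and the 10 smallest interaction p-values. Not every gene the rule gave is described, and some results are not reported here. Calca, Tac1, Sstr2, S1pr3, Galr1, Pcsk1, Resp18, Dagla, Mgll, Colq, Slc17a7, the tissue markers and the promoters shown were picked after their values were seen. The alternatives were other size factors and filters, DESeq2 1.42.0, limma-voom (limma 3.58.1) with quality weights, robust dispersion, only the 8 CFA libraries, a replicate block, leaving out each library or 3 together, and an adjusted p under 0.01.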

Additional observations from a re-analysis of the deposited data

Results flagged for a closer look

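Over 82 called genes and 46 lists in 2 groups each, 256 groups of 4 libraries in all, 16 held a library far from the other 3 by Dixon's test at the 95% level, which by chance flags about 1 in 20 groups. Their part in the results was not tested, beyond the fits that leave out each library.

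High libraries were KI CFA 1 for S1pr3 (156 CPM, the others 135 to 137), KI CFA 4 for Pcsk1 (77.2 CPM, the others 62.6 to 63.4), WT CFA 2 for Oprm1 (38.9 CPM, the others 29.3 to 30.9), Esrrb (5.21 CPM, the others 4.24 to 4.36) and Esrrg (32.3 CPM, the others 26.6 to 27.2), and WT CFA 3 for Kcnv1 (63.0 CPM, the others 44.5 to 46.7) and Htr3a (229 CPM, the others 201 to 205). Rxfp1 was high in WT CFA 4 (2.85 CPM, the others 1.94 to 2.07) and Syndig1l in WT CFA 1 (26.1 CPM, the others 24.5 to 24.7). Low libraries were KI CFA 2 for Chrnb3 (14.7 CPM, the others 17.0 to 17.4) and WT CFA 3 for Pcdh8 (3.99 CPM, the others 5.31 to 5.53).

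As mean log2 CPM of a list, KI CFA 2 was low for potassium channels other than the voltage-gated ones (3.42, the others 3.59 to 3.62) and for the 3 T cell markers (-0.73, the others -0.17 to -0.10). KI CFA 4 was high for cholinergic genes (3.25, the others 3.06 to 3.10) and low for BMP and activin genes (3.52, the others 3.66 to 3.68). WT CFA 3 was low for the list of TRP, Piezo, ASIC, P2X and HCN channels (5.30, the others 5.38 to 5.39).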

How the results depend on the processing

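Under CFA, 441 genes were called as reported, 663 with DESeq2, 198 at an adjusted p under 0.01 and 35 without KI CFA 2, KI CFA 3 and WT CFA 2 together, and leaving out single libraries gave 241 to 652. All 35 were among the 441, as were 238 of the 241. The 652 came without WT vehicle 4, a library outside the CFA comparison that enters its shared dispersion. Its chi-square per gene was 24.4 to 54 against WT vehicle 1 to 3, beside 4.69 to 11 among those. With vehicle, the 673 calls became 1487 with DESeq2, 156 at an adjusted p under 0.01 and 425 without the 3 CFA libraries, and 284 to 905 with single libraries left out. The interaction gave 0 calls in every setting run. Other size factors and filters, limma-voom, robust dispersion and the fit of the 8 CFA libraries kept the count under CFA between 411 and 636. With the replicate number as a block, 422 genes were called (388 of them among the 441) and 484 with vehicle. Deviations of CFA libraries with the same title number correlated at -0.09 to 0.03, which shows no pairing by title number, and the block is a check only. Source numbers in the labels differ from title numbers. KI CFA 1 shares one with WT CFA 2 (correlation 0.03) and KI CFA 2 with WT CFA 3 (0.11), and no block by source number was run. The estimate for Ntrk2, which was not called, changed sign to 0.008, 0.037, 0.010 and 0.035 without KI CFA 1, KI CFA 2, KI CFA 3 and WT CFA 2, and to 0.137 without the 3 libraries together, and was -0.107 to 0.037 over all single libraries left out, while no call reversed. The causes of these shifts were not tested. With 4 pools of 2 mice per group, a missed threshold does not show equality.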
